A study of Bos taurus with 9 samples.

Results

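The genes described here are *DUSP6* and 9 other transcripts that feed back on, or answer to, the kinase ERK: *PHLDA1*, *DUSP4*, *DUSP5*, *SPRY1*, *SPRY2*, *SPRY4*, *SPRED1*, *ETV4* and *ETV5*. They are 10 of the 21512 genes in the deposited table, taken by symbol. *DUSP6* and *PHLDA1* were picked because their values were lower in *TEAD4* knockout (KO) embryos, so their difference between genotypes is given as a description with no test. The other 8 were taken as known feedback or target genes of ERK. Their comparison between genotypes was tested.

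The libraries come from whole single bovine blastocysts, inner cell mass (ICM) and trophectoderm (TE) together, 5 wild type (WT) and 4 KO, collected on day 8 (D8) after *in vitro* fertilization of slaughterhouse oocytes with semen of 1 bull. Oocytes of both groups received *Cas9* mRNA. Those that gave KO embryos also received a guide RNA to the fourth exon of *TEAD4*, and an embryo was classed as KO when all its alleles carried frame-disrupting indels, which can differ from embryo to embryo. The WT libraries carry the names WT_1 to WT_5, and the KO libraries TE_1 to TE_4. Values are TPM, a transcript level corrected for transcript length that sums to 1000000 in each library. The number of reads behind a value is unknown, so no counting interval is given.

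ERK is the last kinase of a cascade that starts at receptor tyrosine kinases such as the FGF receptors and runs through RAS, RAF and MEK. Active ERK switches on its own brakes: the phosphatases DUSP4, DUSP5 and DUSP6 remove its activating phosphates, and the Sprouty (SPRY) and SPRED proteins block the cascade near RAS. In the mammalian blastocyst, FGF4 made by epiblast precursors acts through FGF receptors and ERK to favour hypoblast over epiblast.

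*TEAD4* mRNA was between 18.0 and 54.3 TPM in WT and between 12.5 and 42.8 TPM in KO embryos, a log2 fold change (KO minus WT, on log2(TPM + 1)) of −0.51 (standard error 0.42, adjusted p = 0.947 from limma). TPM values do not show indels, so this level does not check the genotype. From 14776 to 16678 genes were above 0 TPM per library, and the median Pearson's r of a library with the other 8, across genes, was between 0.936 and 0.956. Defining markers of the 3 lineages were present: *SOX2* (epiblast), *CDX2* (TE) and *SOX17* (hypoblast) were above 0 TPM in every library. The 7 TE markers summed to 4168 to 18297 TPM in WT and 6800.5 to 12804 TPM in KO, the 5 epiblast markers to 791 to 2072 and 1380.4 to 2200 TPM, and the 6 hypoblast markers to 81.6 to 152 and 45.8 to 152 TPM. *POU5F1* made up most of the epiblast sum and *GATA6* most of the hypoblast sum, so these sums tell little of the other markers. The mean of log2(TPM + 1) was lower in KO for all 5 hypoblast markers tested, 3 of 5 epiblast and 5 of 7 TE markers, against 55.8% of all genes. Mean levels in WT and KO were 14.8 and 5.51 TPM for *SOX17*, 6.77 and 1.31 TPM for *HNF4A*, and 87.0 and 21.5 TPM for *NANOG*. Of these 18 markers, *GATA4* (hypoblast) alone did not overlap between genotypes, against 2.03% of all genes tested. It was at a low level, 1.09 to 1.75 TPM in WT and 0.367 to 0.957 TPM in KO. The blood markers *HBB* and *PTPRC* were listed at 0 throughout. The 6 markers of cumulus and granulosa cells summed to 137 to 240 TPM in WT and 12.9 to 259 TPM in KO. *HSD3B1* made up most of the sum except in TE_1, where *FSHR* was higher (23.3 against 8.32 TPM). Their part in the results below was not tested.

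*DUSP6*, the phosphatase that binds ERK in the cytoplasm and inactivates it, was lower in every KO than in every WT blastocyst. From WT_1 to WT_5 its level was 24.8, 24.7, 20.4, 10.3 and 18.9 TPM. From TE_1 to TE_4 it was 4.54, 4.16, 3.91 and 3.89 TPM. The lowest WT embryo, WT_4, was 2.27 times as high as the highest KO embryo, TE_1. WT embryos averaged 19.8 ± 5.92 TPM (SD, n = 5) and KO embryos 4.12 ± 0.302 TPM (SD, n = 4), a ratio of 4.81 and a log2 fold change of −1.97. The KO embryos lay within 1.17 times of each other and the WT embryos within 2.40 times. In order of log2 fold change from the lowest, *DUSP6* was number 26 of the 14599 genes tested.

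*PHLDA1*, which encodes a pleckstrin homology-like domain protein whose transcript is used as a readout of ERK activity in tumour cells, also had no overlap between genotypes. Its level was 2.16, 1.53, 2.02, 5.62 and 7.10 TPM from WT_1 to WT_5. It was 1.07, 0.243, 0.322 and 0.341 TPM from TE_1 to TE_4. WT embryos averaged 3.69 ± 2.51 TPM (SD, n = 5) and KO embryos 0.494 ± 0.386 TPM (SD, n = 4), a ratio of 7.47. The lowest WT embryo was 1.43 times as high as the highest KO embryo, a narrower gap than for *DUSP6*. The log2 fold change was −1.52 with the pseudocount of 1 TPM and −2.60 with 0.1 TPM, since the KO values lie mostly below 1 TPM. Within WT the genes did not go in parallel: WT_4 and WT_5 had the highest *PHLDA1* and the lowest *DUSP6*.

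Both genes were chosen by these values, so the count of 2 members without overlap describes the choice. Of the 14599 genes tested, 179 had all KO values below all WT values (1.23%) and 117 had them above (0.801%), which is 2.03% without overlap in either direction. In the 9 fits without 1 embryo, *DUSP6* had log2 fold changes from −2.17 to −1.88 and *PHLDA1* from −1.70 to −1.28. Under 7 other settings of the fit, *DUSP6* was between −2.18 and −1.85.

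**Figure D1:**
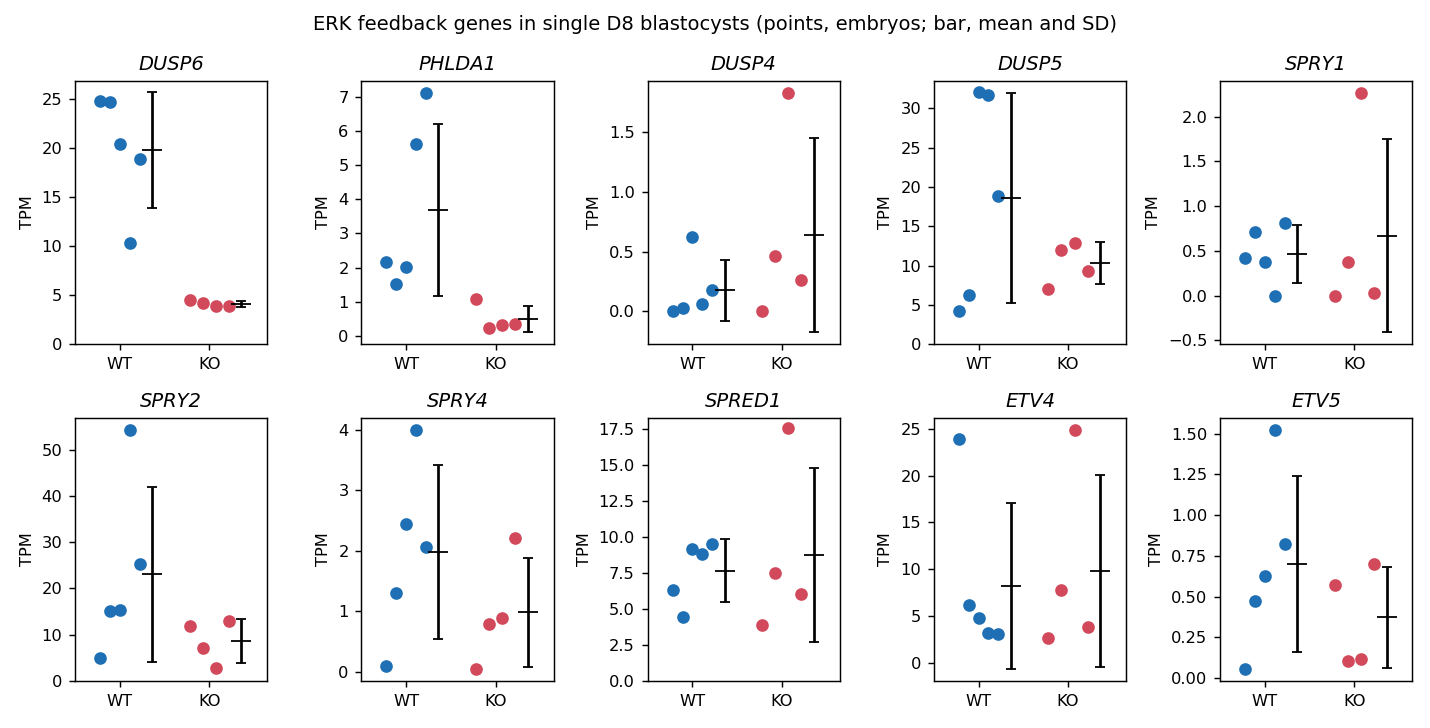
TPM of each gene (vertical axis, from 0 or the lower end of the SD bar) in single D8 blastocysts, 5 WT in blue and 4 KO in red; bars give the mean and SD. *DUSP6* lies between 10.3 and 24.8 TPM in WT and between 3.89 and 4.54 TPM in KO, whereas genotypes overlap in all the genes other than *DUSP6* and *PHLDA1*.

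The other 8 genes passed the filter of a median above 0.1 TPM, and 0 of them passed the test between genotypes (limma, adjusted p-value under 0.05 over all genes). The test called 3 genes of the whole table (0.0205%), 2 higher and 1 lower in KO. At an unadjusted p-value under 0.05, 0 of the 8 passed, against 861 of all genes (5.9%). None of the 8 was free of overlap between genotypes. Their means were lower in KO for 4 and higher for 4, with a median log2 fold change of −0.12 against −0.046 over all genes. Without TE_3, 7 of the 8 were lower, against 54.6% of all genes. Without any other single embryo, 4 to 6 of the 8 were lower.

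Among the phosphatases, *DUSP5*, which acts on ERK in the nucleus, had 4.24, 6.24, 32.1, 31.7 and 18.8 TPM from WT_1 to WT_5. From TE_1 to TE_4 it had 6.97, 11.96, 12.8 and 9.37 TPM. The KO values lay inside the WT range, with 2 WT embryos below all of them and 3 above all of them. The log2 fold change was −0.46 (standard error 0.55, 95% interval −1.66 to 0.73, adjusted p = 0.975 from limma). *DUSP4*, a nuclear phosphatase of MAP kinases, was close to the lower limit of the table. It was listed at 0 in WT_1 and TE_1, was between 0.0270 and 0.617 TPM in the other WT embryos, and was at 0.464, 1.82 and 0.266 TPM in TE_2, TE_3 and TE_4. Its log2 fold change was 0.39 (95% interval −0.21 to 0.98, adjusted p = 0.929 from limma) and 0.086 without TE_3.

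Of the Sprouty genes, *SPRY2* was the most abundant. It had 5.02, 15.2, 15.4, 54.3 and 25.2 TPM from WT_1 to WT_5. From TE_1 to TE_4 it had 11.8, 7.20, 2.70 and 12.95 TPM. WT_1 was the one WT embryo inside the KO range. The log2 fold change was −1.13 (standard error 0.59, 95% interval −2.41 to 0.16, adjusted p = 0.878 from limma; exact permutation test, two-sided, p = 0.175), the lowest of the 8. It was −1.54 without WT_1 and −0.72 without TE_3. *SPRY4* had 0.0992, 1.30, 2.44, 3.999 and 2.06 TPM from WT_1 to WT_5 and 0.0513, 0.799, 0.895 and 2.21 TPM from TE_1 to TE_4. Embryos of the same genotype differed by up to 40.3 times in WT and 43.1 times in KO. Its log2 fold change was −0.53 (95% interval −1.47 to 0.41, adjusted p = 0.944 from limma). *SPRY1* was listed at 0 in WT_4 and TE_1 and reached its highest level, 2.26 TPM, in TE_3. The WT embryos above 0 had 0.370 to 0.813 TPM, and TE_2 and TE_4 had 0.377 and 0.0288 TPM. The log2 fold change of 0.033 became −0.35 without TE_3, −0.37 with a pseudocount of 0.1 TPM and −0.13 with array weights.

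*SPRED1*, which brings the RAS inhibitor neurofibromin to the membrane, had the smallest ratio of highest to lowest WT embryo of the 8 genes, 2.13. It had 6.31, 4.44, 9.15, 8.83 and 9.47 TPM from WT_1 to WT_5. From TE_1 to TE_4 it had 3.91, 7.45, 17.5 and 6.04 TPM. TE_3 was above, and TE_1 below, every WT embryo. Its log2 fold change of 0.031 (95% interval −0.85 to 0.91) became −0.34 without TE_3.

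*ETV4* and *ETV5* encode related ETS transcription factors that FGF signalling induces in many tissues. *ETV4* had 23.9, 6.10, 4.79, 3.13 and 3.02 TPM from WT_1 to WT_5. From TE_1 to TE_4 it had 2.68, 7.80, 24.9 and 3.81 TPM. A single embryo of each genotype, WT_1 and TE_3, stood above the rest. Its log2 fold change was 0.18 (standard error 0.65, 95% interval −1.23 to 1.59) and −0.38 without TE_3. *ETV5* was lower in level, at 0.0559, 0.474, 0.625, 1.52 and 0.822 TPM in WT and 0.570, 0.105, 0.115 and 0.701 TPM in KO. Its log2 fold change was −0.28 (95% interval −0.83 to 0.27).

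**Figure D2:**
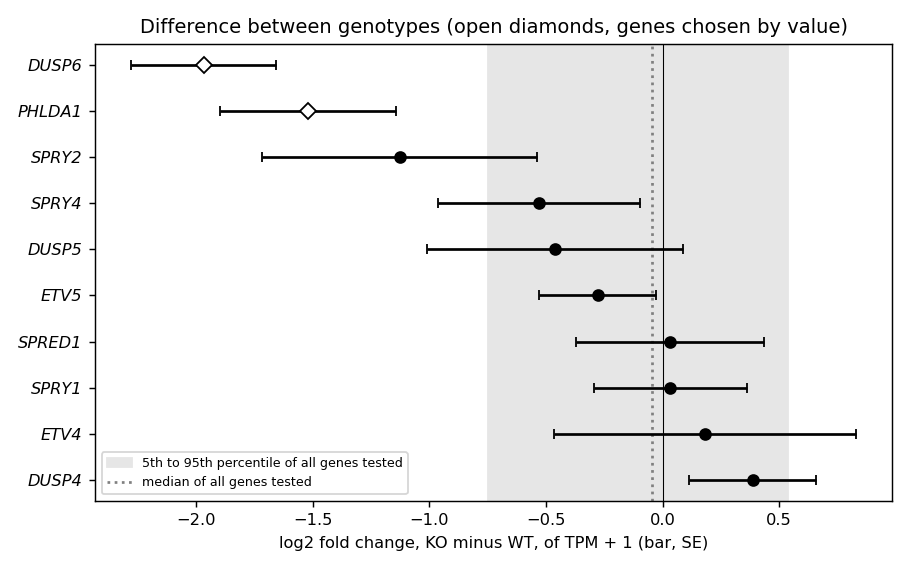
Log2 fold change (horizontal axis, KO minus WT, of TPM + 1) of each gene with its standard error; open diamonds are *DUSP6* and *PHLDA1*, chosen by these values, and filled circles the 8 others. The grey band is the 5th to 95th percentile of the 14599 genes tested, −0.75 to 0.54, and *SPRY2* at −1.13 is the only filled circle outside it.

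By mean level in WT, the order was *SPRY2*, *DUSP6*, *DUSP5*, *ETV4*, *SPRED1*, *PHLDA1*, *SPRY4*, *ETV5*, *SPRY1* and *DUSP4*, from 23.0 TPM at the top to under 1 TPM for the last 3. The ranges over WT embryos of all neighbours in this order overlapped. In KO, *DUSP5* was first, and *DUSP6* and *PHLDA1* were at ranks 5 and 9 in place of 2 and 6.

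Some of the 8 genes varied together from embryo to embryo, a relation examined after the data were seen and pooled over both genotypes. Of the 28 pairs among them, 9 had an unadjusted p-value under 0.05 for Pearson's r of log2(TPM + 1) over the 9 embryos, and 3 passed adjustment over the 28 pairs (exact permutation tests, two-sided). *SPRY2* and *ETV5* rose and fell together (r = 0.943, exact permutation p = 0.000353, adjusted p = 0.00988; Spearman's rho = 0.867, exact permutation p = 0.00451, adjusted p = 0.126). *ETV4* went the opposite way to *SPRY2* (r = −0.824, exact permutation p = 0.00446, adjusted p = 0.0416; rho = −0.683, exact permutation p = 0.0503, adjusted p = 0.176). It also went the opposite way to *ETV5* (r = −0.811, exact permutation p = 0.00393, adjusted p = 0.0416; rho = −0.767, exact permutation p = 0.0214, adjusted p = 0.1497). After leaving out the 2 embryos farthest from the median of the first-named gene of the pair (*SPRY2*, *SPRY2* and *ETV4*), r was 0.923, −0.808 and −0.740. No rank correlation passed its adjustment. Leaving out 1 embryo left 0 pairs past it without WT_1 or WT_5, 1 without WT_2, WT_3, TE_2, TE_3 or TE_4, 4 without WT_4 and 6 without TE_1, while r of *SPRY2* and *ETV5* stayed between 0.894 and 0.961. With 5 and 4 embryos, no value is given within a genotype.

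The same embryos were ordered by the epiblast marker *SOX2*, a transcription factor of the ICM. *SOX2* had 3.89, 19.5, 68.2, 90.4 and 27.7 TPM from WT_1 to WT_5. From TE_1 to TE_4 it had 30.6, 21.0, 2.26 and 42.4 TPM. WT_1 and TE_3, lowest in *SOX2*, were the embryos with the highest *ETV4* and the lowest *SPRY2*. The other epiblast markers did not all share the order of *SOX2*. *POU5F1* was lowest of each genotype in WT_1 and TE_3 (773 and 1352 TPM). *NANOG* was lowest of WT in WT_1 (0.127 TPM). Among KO embryos it was low in both TE_2 and TE_3 (2.70 and 3.55 TPM), against 26.3 TPM in TE_4 and 53.3 TPM in TE_1. *LIN28B* was lowest of WT in WT_1 (0.591 TPM) but highest of KO in TE_3 (8.71 TPM). *SALL4* was lowest in WT_2 and TE_1 (9.12 and 8.77 TPM). Of 24 relations of the 8 genes with *SOX2*, *CDX2* and *SOX17*, 3 passed adjustment over the 24, all with *SOX2*. These were *SPRY2* (r = 0.859, exact permutation p = 0.00317, adjusted p = 0.0344; rho = 0.767, exact permutation p = 0.0214, adjusted p = 0.171) and *ETV5* (r = 0.83, exact permutation p = 0.00430, adjusted p = 0.0344; rho = 0.800, exact permutation p = 0.0138, adjusted p = 0.171). The third was *ETV4*, in the opposite direction (r = −0.902, exact permutation p = 0.00419, adjusted p = 0.0344; rho = −0.717, exact permutation p = 0.0369, adjusted p = 0.177). Without WT_1 and TE_3, r was 0.650 for *SPRY2*, 0.756 for *ETV5* and −0.444 for *ETV4*, so that the last rests largely on these 2 embryos. The number of relations past the adjustment was 0 without WT_1, WT_2, WT_4, TE_2, TE_3 or TE_4, 3 without WT_3 or TE_1 and 4 without WT_5. In whole blastocysts, fewer cells of a lineage and less RNA per cell cannot be told apart.

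**Figure D3:**
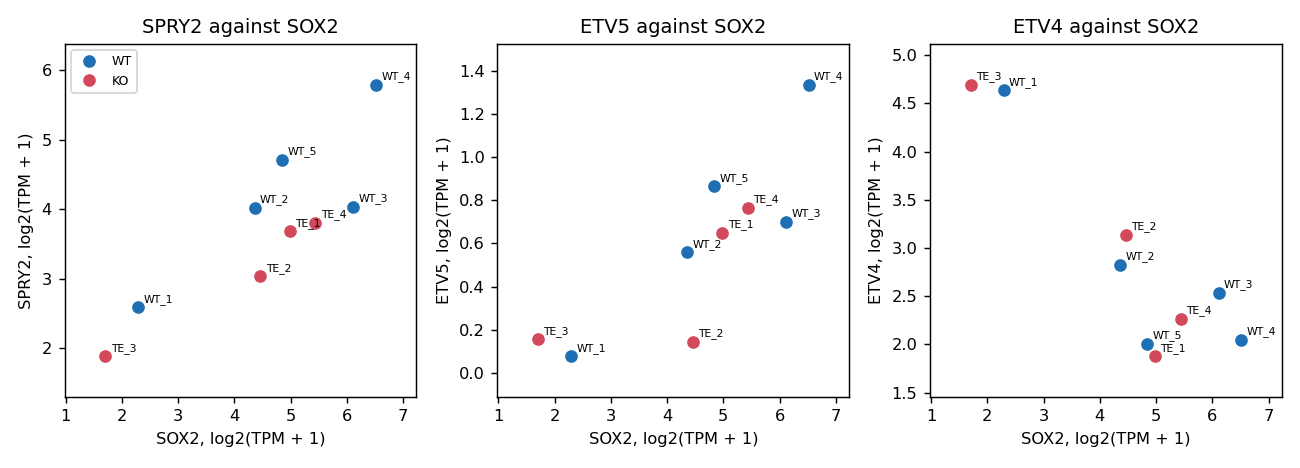
Levels of *SPRY2*, *ETV5* and *ETV4* (vertical axes) against *SOX2* (horizontal axes), all as log2(TPM + 1), with 1 point per embryo, WT in blue and KO in red. *SPRY2* and *ETV5* rise with *SOX2* (r = 0.859 and 0.83), and WT_1 and TE_3 stand at the low end of *SOX2* and the high end of *ETV4*.

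*FGF4*, the epiblast ligand upstream of ERK, was listed at 0 in the same embryos, WT_1 and TE_3. It was at 1.53, 1.71, 14.4 and 9.84 TPM from WT_2 to WT_5, and had 3.16, 0.204 and 2.92 TPM in TE_1, TE_2 and TE_4. Its highest level was in WT_4, the embryo with the most *SPRY2*, *SPRY4*, *ETV5* and *SOX2*. The hypoblast gene *HNF4A* was also at 0 in WT_1 and TE_3, but the hypoblast list did not go 1 way there: *SOX17* was lowest of WT in WT_1 (2.52 TPM) and highest of KO in TE_3 (11.5 TPM), and *GATA4* was also highest of KO in TE_3 (0.957 TPM). *TEAD4* was lowest in these embryos, at 18.0 and 12.5 TPM. *HSD3B1*, from the cumulus and granulosa list, was highest there, at 220.3 and 227 TPM against 8.32 to 146 TPM in the others. Other genes of that list were not: *CYP19A1* and *STAR* were lowest of WT in WT_1 (0.319 and 4.48 TPM), and *FSHR* was highest in WT_2 (26.8 TPM, against 14.5 TPM in WT_1). The part of these genes in the relations above was not tested. *DUSP6* did not share this order: it was highest in WT_1 and lowest of the WT embryos in WT_4. These values were compared after they were seen, with no test.

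**Figure D4:**
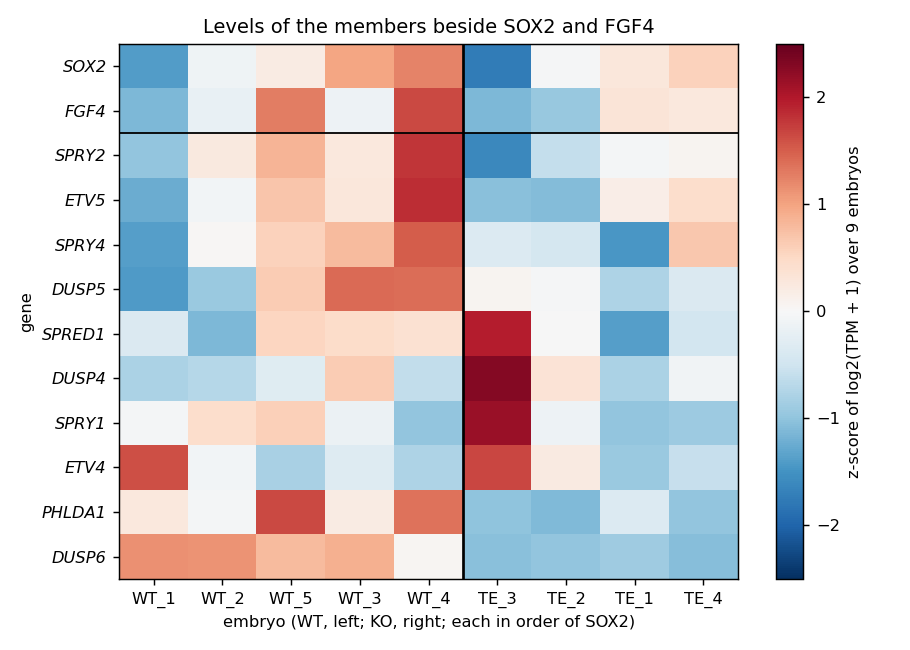
Heat map of z-scores of log2(TPM + 1) over the 9 embryos (colour) for *SOX2*, *FGF4* and the 10 genes (rows), with WT at the left and KO at the right, each in order of *SOX2* (columns). *SPRY2*, *ETV5* and *SPRY4* share the high colours of *SOX2* in WT_4, *ETV4* is high in WT_1 and TE_3, and *DUSP6* is lower in every KO column than in every WT column.

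The rest of the pathway was described by 103 further genes in 5 lists, of which 90 reached the filter. None was called by limma, at a smallest adjusted p-value of 0.611, against 0.0205% of all genes. An unadjusted p-value of limma under 0.05 was found for 4 lower and 2 higher genes of the 90. Of all 14599 genes, 861 (5.9%) had such a value, 559 lower and 302 higher in KO. All KO values were below all WT values in 2 genes (2.22%, against 1.23% of all genes) and above in 0. The mean was lower in KO for 62 of the 90 (68.9%) against 55.8% of all genes; with quantile normalization it was lower for 56 of them and 47.9% of all genes. The medians of log2 fold change were −0.11 for 19 receptors and ligands, −0.30 for 24 genes of the cascade, −0.20 for 16 other inhibitors, −0.15 for 19 other response genes and −0.071 for 12 ETS and repressor genes. Over all genes the median was −0.046. For the response genes it was above 0 without TE_1 (0.062) or WT_3 (0.068) and with array weights (0.016). For the ETS and repressor genes it was above 0 without WT_3 (0.032), with quantile normalization (0.021) and with the filter at 1 TPM (0.018). Over all genes it was above 0 without TE_1 (0.038) and with quantile normalization (0.016).

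The 2 genes without overlap, *FRS2* and *FGFR2*, were both at low levels. Values of the other FGF receptors and of the adaptor gene *FRS3* overlapped between genotypes. Mean levels were 17.6 TPM in WT and 9.18 TPM in KO for *FGFR3*, 22.7 and 18.8 TPM for *FGFR4*, and 2.65 and 3.62 TPM for *FRS3*. *FRS2*, the adaptor that binds activated FGF receptors, had 0.932, 0.856, 2.02, 0.667 and 0.972 TPM in WT and 0.280, 0.301, 0.0171 and 0.427 TPM in KO. The difference of −0.71 in log2 (standard error 0.21) was not significant after adjustment (limma, adjusted p = 0.611). *FGFR2*, an FGF receptor, was at 1.70, 1.67, 1.83, 1.71 and 2.95 TPM in WT and at 1.63, 1.37, 1.43 and 0.786 TPM in KO, with the groups nearly touching (log2 fold change −0.37 with a standard error of 0.24; limma, adjusted p = 0.920). *MAP2K1*, which encodes a MEK kinase, had a mean of 57.3 ± 16.7 TPM (SD, n = 5) in WT embryos against 47.1 ± 19.1 TPM (SD, n = 4) in KO embryos, with overlapping values. Other ERK response genes had overlapping values, among them *FOS* (23.4 ± 12.99 TPM in WT, SD, n = 5, and 16.2 ± 5.62 TPM in KO, SD, n = 4) and *CCND1* (1.53 ± 0.929 and 1.42 ± 2.00 TPM). The lowest log2 fold change of that list was that of *MYC*, −1.22 (standard error 0.50, adjusted p = 0.784 from limma). *FGFR3*, *FGFR4*, *FRS3*, *MAP2K1*, *FOS*, *CCND1* and *MYC* were named after their values were seen.

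**Figure D5:**
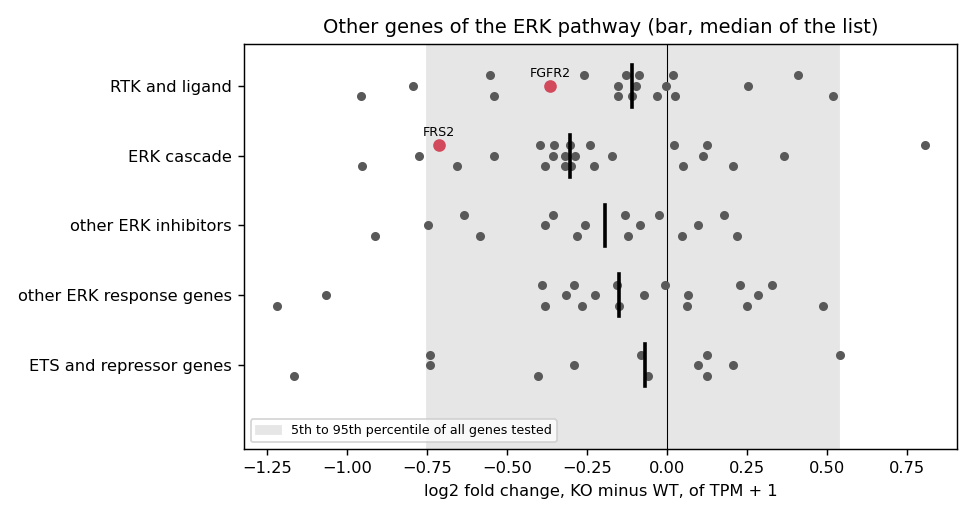
Log2 fold change (horizontal axis, KO minus WT, of TPM + 1) of the 90 further genes of the ERK pathway, 1 point per gene, by list (rows); bars are medians and the grey band is the 5th to 95th percentile of all genes tested. *FRS2* and *FGFR2*, in red, are the genes without overlap between WT and KO.

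The genes whose pattern was most like that of *DUSP6* were found among 11212 genes with a median above 1 TPM by Pearson's r of log2(TPM + 1) over the 9 embryos. This is a description: *DUSP6* separates the genotypes, so genes that do the same come first. They were *CRY1*, a repressor of the circadian clock (r = 0.963), the unnamed gene ENSBTAG00000052991 (r = 0.941), *IRF2BP1*, a transcriptional corepressor (r = 0.925), the unnamed gene ENSBTAG00000033523 (r = 0.919) and *SLC48A1*, a haem transporter (r = 0.913). *CRY1* was at 5.15, 6.07, 3.96, 2.51 and 4.63 TPM in WT and 2.06, 2.08, 1.35 and 1.42 TPM in KO, and like *DUSP6* was lowest of the WT embryos in WT_4. The other ERK feedback genes described here were left out of this search beforehand, so their absence from these 5 carries no information. None of the further genes of the ERK pathway lists was among these 5.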

How the data were processed

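One mRNA library per D8 blastocyst (5 WT, 4 KO) was made by the authors. Per the labels, FastQC, fastp and kallisto were used, and the deposited values are TPM, divided by transcript length by the authors; versions, genome build and annotation are not given in the sources used here. The labels and the study's methods describe different extraction and library kits. Columns were assigned to genotype by name. TPM does not keep read numbers, so precision at low values is unknown, and DESeq2, the study's tool, could not be run.

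Genes with a median above 0.1 TPM (14599) were fitted with limma 3.58.1 (R 4.3.3; lmFit, eBayes with trend) on log2(TPM + 1), KO minus WT, with Benjamini-Hochberg adjustment; a gene was called at an adjusted p-value under 0.05 when its log2 fold change was also beyond 1 in either direction. The fit was tested on simulated data. Exact permutation tests and correlations were two-sided (Python 3.11.15, numpy 2.4.6, pandas 2.3.3, scipy 1.17.1; plots with matplotlib 3.10.9). The p-values of limma set a difference against the spread between these embryos, moderated over all genes. Those of the permutation tests come from reassigning values among all 9 embryos, with the genotypes pooled for the correlations. The members and lists were chosen with earlier results of these data known; the correlations were added after the data were seen. Genes named were *TEAD4*, the 10 genes, genes of each list called or, with none called, up to 3 without overlap, and the 5 most like *DUSP6*; others are stated. All 10 symbols matched RefSeq (ARS-UCD2.0), which was used for names only. No sequences are printed. Each embryo was left out in turn, and 7 other alternatives were run: array weights, limma without trend, quantile normalization, size factors by median of ratios, a filter at a median of 1 TPM, the table unfiltered, and 0.1 TPM as pseudocount.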

Additional observations from a re-analysis of the deposited data

Results flagged for a closer look

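In the 36 sets of values tested (18 named genes, each in WT and in KO, on log2(TPM + 1)), 5 had a highest embryo far from the others of its genotype by Dixon's test. Chance alone would mark about 5% of sets from genes named without regard to their values. All 5 sets here are from genes named by their values in these embryos, so that share does not apply and no excess is read from the count. *PHLDA1* was at 1.07 TPM in TE_1 against 0.341 TPM in the next KO embryo. *FGFR2* was at 2.95 TPM in WT_5 against 1.83 TPM, and *FRS2* at 2.02 TPM in WT_3 against 0.972 TPM, each beside the next WT embryo. *IRF2BP1* was at 6.12 TPM in WT_3 against 4.75 TPM, and *SLC48A1* at 19.2 TPM in WT_1 against 9.26 TPM, again beside the next WT embryo. In *FGFR2*, *FRS2*, *IRF2BP1* and *SLC48A1* the separated embryo lay on the side away from KO. The highest WT embryo must lie there in any gene whose KO values are all below its WT values.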

How the results depend on the processing

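The direction of *DUSP6* and *PHLDA1* without 1 embryo or with another pseudocount was fixed by their choice, since their groups do not overlap, and is no sign of stability; the value of *PHLDA1* moved to −2.60 with a pseudocount of 0.1 TPM. None of the 8 other genes passed the adjusted p-value of limma in any of these that tested it; *DUSP4*, *SPRY1* and *ETV5* had no value with the filter at 1 TPM. Signs changed when single embryos were left out for *ETV4* (range −0.38 to 0.64; −0.38 without TE_3, −0.0081 without WT_4, −0.018 without WT_5), *SPRED1* (−0.34 to 0.30; −0.34 without TE_3, −0.018 without WT_1, −0.12 without WT_2) and *SPRY1* (−0.35 to 0.22; −0.35 without TE_3, −0.097 without WT_4), and for *SPRY1* also with array weights (−0.13) and a pseudocount of 0.1 TPM (−0.37). The genes called over the whole table, 3 in the main fit, numbered 5 without trend, 5 with median-of-ratios size factors, 6 with quantile normalization, 8 with a median above 1 TPM, 8 with a pseudocount of 0.1 TPM and 0 to 10 when 1 embryo was left out (10 without TE_3; 0 without TE_1, TE_2, TE_4, WT_3 or WT_4, where 824 to 1235 genes had an unadjusted p-value under 0.05 by limma). The number of correlated pairs ranged from 0 to 6 among the 8 genes and from 0 to 4 with the lineage markers when 1 embryo was left out, and was 2 in each with quantile normalization. The cause of these changes was not tested. The number of the 10 genes lower in KO was 6 in the main fit and 6 to 9 without 1 embryo. It includes *DUSP6* and *PHLDA1*, which were lower by their choice. Of the 8 others, 4 were lower in the main fit (50%, against 55.8% of all genes) and 4 to 7 without 1 embryo. The share of all genes lower in KO ranged from 45.7% (without TE_1) to 63.5% (without TE_2). No paired analysis was possible because each library is a separate embryo and the sample titles share no number between genotypes. Levels under 1 TPM, as for *DUSP4*, *SPRY1* and *ETV5*, are limited by unknown depth.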
